A study of Mus musculus with 8 samples.

Results

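Anti-CTLA-4 was compared with isotype antibody in lymph node cells of glioma-bearing mice whose B cells had been left in place. The cells compared were all barcodes of these libraries in which 500 genes or more were detected and mitochondrial UMIs made up 10% or less (unique molecular identifiers, which count RNA molecules). They numbered 21289 of the 49060 such barcodes in the whole series, 9586 after isotype and 11703 after blockade. The mice were C57BL/6, with GL261 cells, a mouse glioma line, injected into the brain, and had no other treatment of their B cells. They received isotype control IgG or anti-CTLA-4 antibody, and deep cervical lymph nodes, which drain the brain and its coverings, were taken on day 20 after implantation. Live immune cells were sorted by FACS and profiled by droplet single-cell RNA sequencing from the 5′ end. Each treatment had 1 library, and the number of mice in it is not given in the sources used here, so no difference has a replicate check and no p-value is given. Intervals are at 95% and describe counting error alone. As a reference that shares no library with this comparison, the same ratio was taken in glioma-bearing mice that had also received anti-CD20, which removes B cells. A library from mice injected with saline in place of glioma cells gives a further level, and which antibody they received is not given in the sources used here. At issue in the study was how CTLA-4 blockade acts on the nodes that drain a glioma, and the whole node population is described here, from shifts seen in every lineage to those of rare innate cells.

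CTLA-4 is an inhibitory receptor that T cells place on their surface after activation and that regulatory T cells carry constantly. It binds CD80 and CD86 on antigen-presenting cells more tightly than the activating receptor CD28 does, and so limits costimulation. In a lymph node, dendritic cells that arrive from the tissue present antigen to T cells, plasmacytoid dendritic cells and natural killer (NK) cells act in the first interferon and cytotoxic response, and gamma-delta T cells form a small innate-like population.

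The libraries held 55770528 UMIs with isotype and 63497466 with anti-CTLA-4. Barcodes with the highest doublet scores were removed, 735 and 1096 of them, which left 8851 and 10607 cells with medians of 4577 and 4259 UMIs. Of the cell barcodes of this pair, 152 occurred in both libraries, a number within the 108 to 163 found for other pairs of libraries. The isotype library stood apart from the other 4 in the study. Its cells had a median of 1.00% mitochondrial UMIs, against 1.77% in the saline library, 2.09% with anti-CTLA-4 and 2.07% in each of the B cell depleted libraries. A follicular B-like cluster of 289 cells in this pair held 283 from the isotype library, with 5 further cells from the saline and 0 from the depleted libraries, and these isotype cells had a median of 0.130% mitochondrial UMIs. The part of the library's preparation in these differences was not tested. With 1 library a side, treatment and library cannot be told apart for any value below, and the levels of the 3 other libraries are therefore printed beside the results that turn on it.

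B lineage clusters made up 52.2% (51.1 to 53.2) of the isotype cells and 49.2% (48.3 to 50.2) of the anti-CTLA-4 cells, and T cell clusters 45.7% (44.6 to 46.7) and 48.8% (47.9 to 49.8). The 4 large lineages were follicular B-like cells (3846 and 4186 cells), conventional CD4 T cells (1476 and 1919), CD8 T-like cells (1532 and 1883) and Treg-like cells (406 and 574). The Treg-like class pooled 4 clusters with RNA of Foxp3, the transcription factor of regulatory T cells, and of Cd4. A cluster of proliferating cells that also carried Foxp3 RNA, with 5 and 6 cells, was left unnamed, since its leading genes held a marker of another class and none of Treg cells. Their share was 4.59% (4.16 to 5.04) with isotype and 5.41% (4.99 to 5.86) with anti-CTLA-4, with 4.68% in the saline library. The ratio of shares was 1.18 (1.04 to 1.34), and in the depleted pair it was 1.14 (1.04 to 1.26). Follicular B-like cells had a ratio of 0.908 (0.878 to 0.939), or 0.973 when no doublets were removed. CD8 T-like cells had one of 1.03 (0.964 to 1.09), whose interval holds 1.

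Among smaller classes the germinal centre B-like share was 0.870% and 1.72%, a ratio of 1.97 (1.51 to 2.57). It was 0.321% in the saline library, and its depleted ratio was 1.57 (0.959 to 2.56). CD4 clusters high in Cd44, a mark of antigen experience, held 123 and 212 cells, a ratio of 1.44 (1.15 to 1.79). The corresponding depleted ratio was 1.02 (0.863 to 1.2). A B cell cluster led by Apoe, Plac8 and Fcrl5 stood at 1.41 (1.16 to 1.72), and plasma cell-like cells, with 43 and 23 cells, at 0.446 (0.269 to 0.740). Plasma cell-like shares were 0.486% with isotype, 0.217% with anti-CTLA-4 and 0.0775% with saline. Their depleted ratio, from 4 and 9 cells, was 2.23 (0.688 to 7.25). The innate classes were small and their intervals wide. NK-like cells numbered 53 in each library, a ratio of 0.834 (0.571 to 1.22). Migratory dendritic cell (DC)-like cells numbered 29 and 49, a ratio of 1.41 (0.892 to 2.23). Plasmacytoid DC-like cells, 28 and 32, had a ratio of 0.954 (0.575 to 1.58). The gamma-delta gate took cells with RNA of Trdc, the delta chain constant gene, or of gamma chain constant genes, with Cd3 RNA and none of Trac. Its cells numbered 40 and 42, a ratio of 0.876 (0.569 to 1.35). The remaining myeloid clusters numbered 31 and 24, with a ratio of 0.646 (0.379 to 1.10) that turned to 1.23 with no doublet removal. Their depleted ratio was 0.599 (0.401 to 0.895). Innate lymphoid-like clusters were led by Il22, with 21 and 24 cells, and by Il13 and Areg, with 19 and 13. At this depth no difference in share was detectable for NK-like, gamma-delta, plasmacytoid or migratory DC-like cells, although the plasmacytoid ratio was 1.67 when barcodes were gated on markers in place of clusters.

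**Figure D1:**
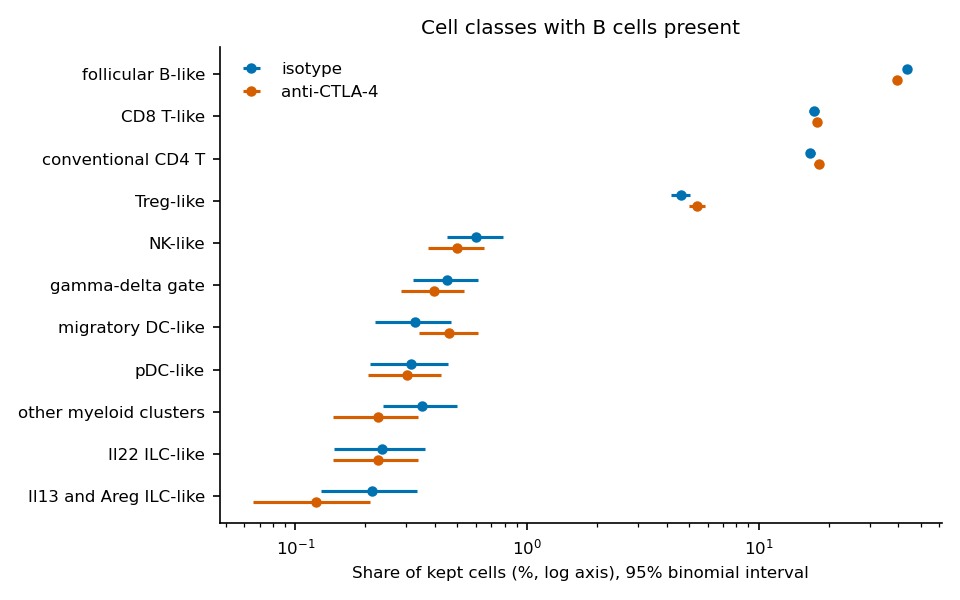
Share of kept cells on a log axis for 11 classes, isotype in blue and anti-CTLA-4 in orange, with exact 95% binomial intervals. The follicular B-like intervals do not overlap, while those of each other class shown do.

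Within each class, UMIs were summed over the cells of a library and scaled to a total of 1000000 for that class (CPM), and a ratio of anti-CTLA-4 over isotype was taken for genes with at least 100 UMIs over both libraries. A gene was counted as past the fold at a ratio of at least 1.5 or at most 1/1.5. This held for 1.67% of 9631 genes in follicular B-like cells (93 higher, 0.966%, and 68 lower, 0.706%), 1.6% of 8622 in conventional CD4 T cells (108 higher, 1.3%, and 30 lower, 0.348%), 1.84% of 9007 in CD8 T-like cells (129 higher, 1.43%, and 37 lower, 0.411%) and 7.62% of 6507 in Treg-like cells (344 higher, 5.29%, and 152 lower, 2.34%). Scaled by median-ratio size factors instead, the splits were 63 and 95, 58 and 62, 90 and 60, and 175 and 260. That scaling removes a median log2 ratio of all genes of 0.06 to 0.11 in these lineages, which was 0.11 in Treg-like cells. The balance of higher and lower genes thus turned with the scaling in 3 of the 4 lineages and not in CD8 T-like cells, and gene groups are given below beside the median of all genes.

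A shift was counted as shared where a gene stood at 0.8 or below, or at its inverse or above, in all 4 large lineages. Of 6153 genes measured in all of them, 24 (0.39%) were higher and 35 (0.569%) lower. With median-ratio size factors the counts were 16 and 57. Of the 24 higher genes 13 were mitochondrially encoded, that is, every gene of this kind in the files. They encode subunits of the respiratory chain and ATP synthase, and the set was higher in each lineage.

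In follicular B-like cells mt-Atp8 stood at 198 CPM with saline, 99.5 with isotype and 355 with anti-CTLA-4, a ratio of 3.57. In CD4 T cells it stood at 213, 103 and 351, with 273 and 277 in the depleted isotype and anti-CTLA-4 libraries. mt-Co1, a core subunit of cytochrome oxidase and one of the most abundant RNAs, stood in CD8 T-like cells at 3893 CPM with saline, 2133 with isotype, 4789 with anti-CTLA-4, and 4714 and 4721 in the depleted pair. The isotype library was the low one in each case, and the anti-CTLA-4 level lay near those of the other libraries except for mt-Atp8. The isotype level lay outside the range of the 4 other libraries in all 3 T cell lineages for 13 of 13 of these genes, and the anti-CTLA-4 level for 1. The median log2 ratio of the list was 1.14 in follicular B-like, 1.09 in CD4 T, 1.09 in Treg-like and 1.15 in CD8 T-like cells, beside medians of 0.06 to 0.11 for all genes. In the depleted pair it was -0.015, 0.11 and 0.016 in the 3 T lineages.

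The rare cells showed it too. The median log2 ratio was 0.83 over 11 members in NK-like cells, 1.10 over 10 in the gamma-delta gate, 0.58 over 10 in migratory DC-like, 0.96 over 11 in plasmacytoid DC-like cells and 0.90 over 10 in the other myeloid clusters. Migratory DC-like cells, the class with the smallest median, had 0.661% mitochondrial UMIs under isotype, 1.00% with anti-CTLA-4, 0.815% in the saline and 1.40% and 1.03% in the depleted libraries.

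**Figure D2:**
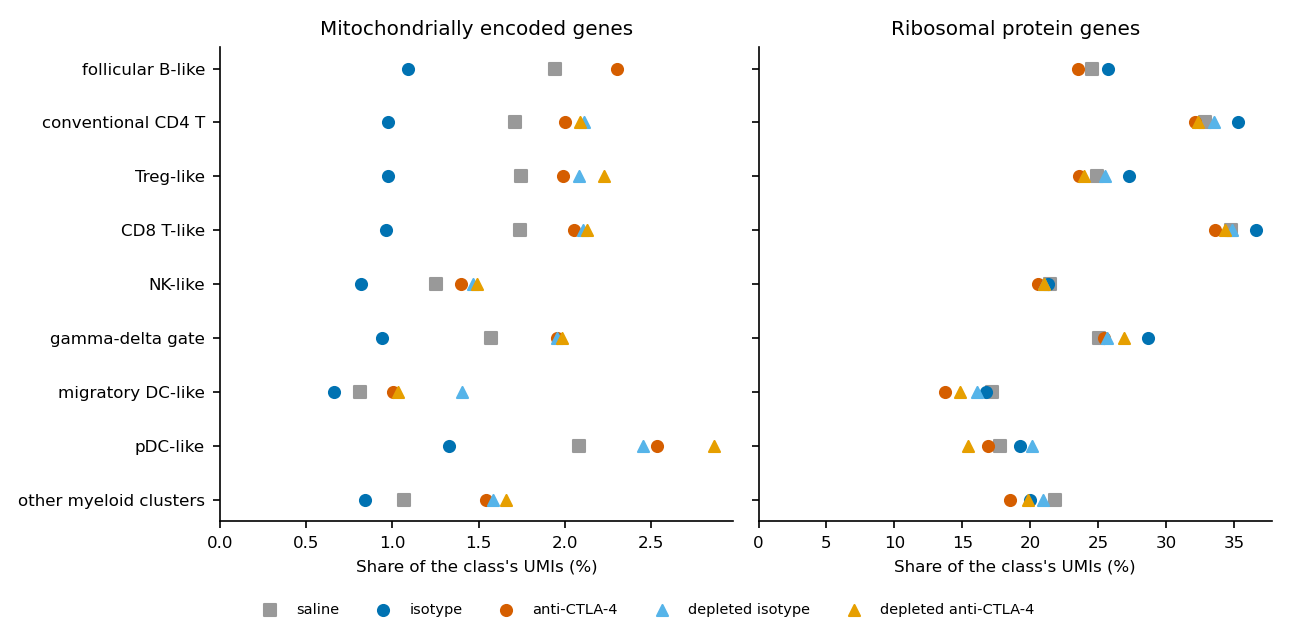
Share of a class's UMIs, in percent, from mitochondrially encoded genes (left) and ribosomal protein genes (right) for 9 classes and the 5 libraries, 1 point per library. Isotype (dark blue) is the lowest mitochondrial point in every class shown, and it is the highest ribosomal point in the 4 large lineages and the gamma-delta gate.

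Nuclear genes of the same respiratory complexes did not share that shift. Of 42 nuclear oxidative phosphorylation genes measured, 7 were above 1 in follicular B-like, 11 in CD4 T, 0 in Treg-like and 8 in CD8 T-like cells, and the medians were -0.09, -0.11, -0.25 (-0.088 without the 6 largest Treg-like cells described below) and -0.12. Ribosomal protein genes, which build the translation machinery, were lower by a small step. Of 77 measured, 67, 65, 75 and 66 stood below 1 in the same order, with medians of -0.12, -0.13, -0.22 and -0.13, and -0.04, -0.09 and -0.01 in the T lineages of the depleted pair. All 10 ribosomal protein genes among the shared lower genes had the same direction in the depleted pair, although none passed 0.8 in all 3 of its T lineages. Rps28 in CD8 T-like cells stood at 2555 CPM with saline, 2664 with isotype, 1938 with anti-CTLA-4, and 2278 and 1964 in the depleted pair, so that both anti-CTLA-4 libraries were the lower of their pair.

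The other 10 named shared higher genes had small ratios, up to 1.74. Pam, an enzyme that amidates peptide hormones, was at 1.74 (1.26 to 2.42) in follicular B-like, 1.51 in CD4 T, 1.52 in Treg-like and 1.54 in CD8 T-like cells. Zeb1, a repressor of transcription in lymphocytes, stood in CD8 T-like cells at 210 CPM with saline, 197 with isotype, 259 with anti-CTLA-4, and 283 and 270 in the depleted pair. Its ratio was 1.34, 1.34, 1.44 and 1.32 over the lineages, and again the isotype library was the lowest of the 5. Zeb1 was the leading gene of a CD8 T-like and of a CD4 T cluster whose cells had medians of 0.52 and 0.51 of their libraries' UMIs. These clusters held 6 isotype and 25 anti-CTLA-4 cells, and 8 and 16, and the part of such low-UMI cells in the shared higher genes was not tested. Kcnq1ot1, an imprinted long noncoding RNA, was at 1.29 to 1.51, Pik3ca, the catalytic subunit of PI3-kinase, at 1.29 to 1.63, and Tcf12, an E protein of lymphocyte development, at 1.2503 to 1.39. The polarity gene Mpp7 was at 1.28, 1.30, 1.64 and 1.61 and had depleted ratios of 1.29, 1.51 and 1.12 in CD4 T cells, Treg-like cells and CD8 T-like cells. Med13, a subunit of the Mediator kinase module, was at 1.29 to 1.52, the translation repressor partner Gigyf2 at 1.26 to 1.36 and Scaper at 1.26 to 1.54. The processed copy Rpl10-ps3, which may take reads of its parent gene, was at 1.40 to 1.57. For 7 of these 10 genes the isotype level lay outside the range of the 4 other libraries in all 3 T lineages, and for Rpl10-ps3 the anti-CTLA-4 level did. The genes were chosen by a difference between these 2 libraries, which itself favours such a level, and the share over all genes was not counted.

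The lower shared genes held several of a different kind. Filip1l (mm10 chromosome 16, 57353277 to 57572804) encodes a filamin-interacting protein and had the largest shift of the named ones. It stood at 749, 769 and 414 CPM in follicular B-like cells of the saline, isotype and anti-CTLA-4 libraries, and at 798, 817 and 401 in CD4 T cells with 489 and 521 in the depleted libraries. Its ratio was 0.54, 0.49, 0.46 and 0.50 in follicular B-like, CD4 T cells, Treg-like cells and CD8 T-like cells, and for this gene the anti-CTLA-4 library was the lowest of the 5. Zc3h7a, which binds microRNA precursors, was at 0.59 to 0.65, Il31ra, a cytokine receptor chain, at 0.65 to 0.73, and Fgfr2, a growth factor receptor, at 0.62 to 0.74. The kinase genes Camk2b and Camk1d were at 0.55 to 0.63 and 0.57 to 0.79, Il1rapl1 at 0.54 to 0.74, and Gapdh of glycolysis at 0.57 to 0.70. Gm42418 and AY036118, chosen after their values were seen, are gene models that overlap ribosomal RNA sequence, and they were at 0.75 to 0.80 and 0.50 to 0.58. Of the 35 lower genes the isotype level lay outside the other 4 libraries in all 3 T lineages for 21, the anti-CTLA-4 level for 20, both for 11 and neither for 5. As for the higher genes, the choice of genes favours such levels and no share over all genes was counted.

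Socs3 (chromosome 11, 117966079 to 117970336) encodes a feedback inhibitor of cytokine receptors that signal through STAT3. In follicular B-like cells it stood at 17.7 CPM with saline, 66.7 with isotype and 30.2 with anti-CTLA-4, a ratio of 0.45 (0.40 to 0.51). In Treg-like cells the 5 levels were 92.0, 225, 136, 113 and 109, in the order used so far, and the ratio was 0.61 (0.53 to 0.69). CD4 T cells had a ratio of 0.68 and CD8 T-like cells 0.77. In every lineage the isotype library was the high one, and anti-CTLA-4 lay above the saline level.

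Hspa1a and Hspa1b encode inducible HSP70 chaperones and lie next to each other on chromosome 17, at 34969359 to 34972156 and 34956429 to 34959238. Their promoters are shown because the copies had like ratios. The windows chr17:34972107-34972406 and chr17:34959189-34959488, both on the minus strand, run from 250 bases before to 50 bases after the RefSeq start (GRCm38.p6, the assembly of mm10), and capitals mark the 4 of 300 positions that differ.
Hspa1a: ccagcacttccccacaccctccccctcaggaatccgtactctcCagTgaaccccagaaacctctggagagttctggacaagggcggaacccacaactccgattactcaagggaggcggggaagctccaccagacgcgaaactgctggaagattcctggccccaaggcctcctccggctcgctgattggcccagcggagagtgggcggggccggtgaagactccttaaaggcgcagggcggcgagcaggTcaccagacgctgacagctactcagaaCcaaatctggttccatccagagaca
Hspa1b: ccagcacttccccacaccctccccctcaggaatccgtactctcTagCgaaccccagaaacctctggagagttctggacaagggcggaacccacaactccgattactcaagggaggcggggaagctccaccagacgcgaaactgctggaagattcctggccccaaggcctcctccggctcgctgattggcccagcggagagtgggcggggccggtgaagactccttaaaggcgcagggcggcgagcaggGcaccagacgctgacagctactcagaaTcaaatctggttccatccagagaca
Most of each window lies before the start and is not in the RNA, so it does not show how reads were assigned. Which copy the counts of the pair belong to was not tested.

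Hspa1b stood in follicular B-like cells at 787 CPM with saline, 1605 with isotype and 850 with anti-CTLA-4, and Hspa1a at 684, 1414 and 755, each a ratio of 0.53. In CD8 T-like cells Hspa1b stood at 656, 635 and 451, with 414 and 601 in the depleted isotype and anti-CTLA-4 libraries, so that isotype was the higher of the pair with B cells and the lower without them. The ratio with B cells was 0.73 in CD4 T, 0.59 in Treg-like and 0.71 in CD8 T-like cells, and 1.5, 1.27 and 1.45 in the depleted pair. Slc15a2 (chromosome 16, 36750161 to 36785158), a peptide transporter of the cell membrane, did likewise. Its levels in CD4 T cells were 25.3 CPM with saline, 40.2 with isotype, 30.8 with anti-CTLA-4, and 27.7 and 40.03 in the depleted pair. With B cells the Slc15a2 ratios were 0.76, 0.63 and 0.68 in the 3 T lineages and without them 1.45, 1.40 and 1.254. The difference between the pairs was not tested. A cluster led by Hspa1a and Hspa1b was part of the follicular B-like class, with 1002 and 994 cells, so their levels there are not independent of the clustering.

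Most members of the heat shock and chaperone list stayed within the fold in each large lineage, and Treg-like cells had the most past it. Hsp90ab1, the constitutive HSP90 and the most abundant member, was at 0.98 in follicular B-like, 1.10 in CD4 T and 1.10 in CD8 T-like cells, and Hspa8, the constitutive HSP70, at 0.82, 1.01 and 0.97. Of 18 members, 2, 1, 4 and 0 were past the fold downwards in follicular B-like, CD4 T cells, Treg-like cells and CD8 T-like cells, beside 0.706%, 0.348%, 2.34% and 0.411% of all genes. Upwards they numbered 0, 0, 1 and 0, beside 0.966%, 1.3%, 5.29% and 1.43%.

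The depleted pair gives the same ratio in other libraries. Among the 24 shared higher genes 0, and among the 35 lower genes 0, passed these limits the same way in all 3 of its T lineages. Between the limits in all 3 lay 21 and 27 of them. Over 6312 genes measured in the 3 T lineages of both pairs, 63 were higher and 39 lower in all 3 with B cells, against 3 and 3 after depletion. None passed the same way in both pairs, and 2, Hspa1b and Slc15a2, passed in opposite directions. With only 3 and 3 of 6312 genes past the limits after depletion, the lack of overlap cannot show whether a shift recurs. The share of all genes between the limits in the depleted pair was not counted.

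**Figure D3:**
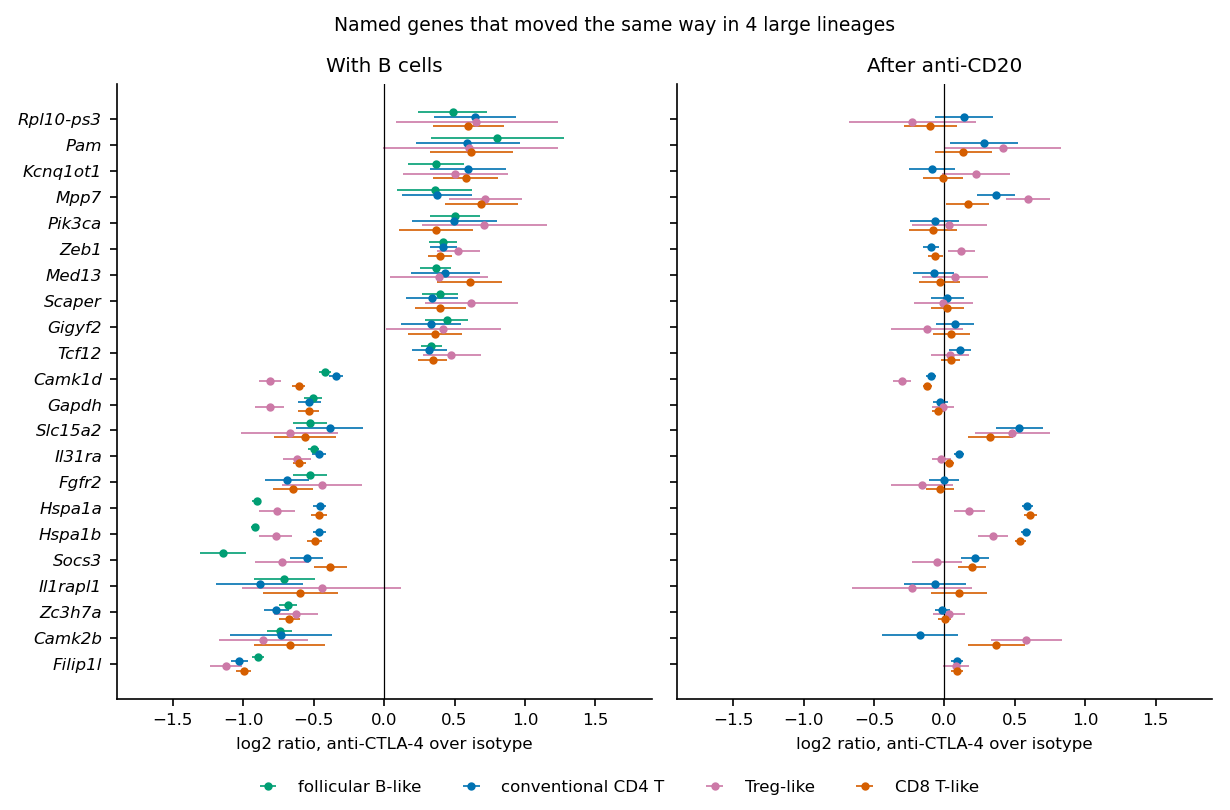
Log2 ratio of anti-CTLA-4 over isotype with 95% counting intervals for the 22 named shared genes, with B cells (left, 4 lineages) and after anti-CD20 (right, 3 T lineages). On the left every point of a gene lies on one side of 0, while on the right most lie near 0 and those of Hspa1a, Hspa1b and Slc15a2 lie on the other side.

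Promoters of the shared genes were searched on both strands for TGANTCA (AP-1), TGACGTCA (CRE) and for an NF-kB, a heat shock and an interferon response motif. AP-1 letters were in the windows of Pik3ca and Tcf12, 2 of 7 higher genes with a promoter in the table, and in 0 of 27 lower ones, against 7.79% of all 32544 promoters. The interferon response motif was in that of Tcf12 and of Rpl38, against 3.45% of all. The 3 others were in none, against 1.80% of all promoters for CRE, 0.157% for NF-kB and 0.608% for heat shock. At such shares, their absence from so few promoters decides nothing. A match is a run of letters and not a measured site.

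A gene was counted as private to a lineage where it was past the fold there and between 0.8 and its inverse in the 3 others. Follicular B-like cells had 4 higher (0.065% of 6153 genes) and 5 lower (0.0813%), CD4 T cells 4 higher (0.065%) and 0 lower, CD8 T-like cells 1 in each direction (0.0163%), and Treg-like cells 171 higher (2.78%) and 106 lower (1.72%). The Treg-like class had the fewest UMIs of the 4. At a minimum of 400 UMIs in each of the 4 lineages it had 13 higher and 25 lower private genes. The other lineages then had 0 in follicular B-like, 1 in CD4 T and 0 in CD8 T-like cells. With 400 UMIs asked of the lineage itself alone, follicular B-like cells had 3 lower and CD8 T-like cells 1 higher. The intervals of 44 of the 171 higher and 57 of the 106 lower Treg-like genes lay wholly past 0.8 or its inverse.

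In follicular B-like cells the private genes with the most UMIs were lower. Egr1, an immediate early transcription factor of antigen receptor signalling, stood at 85.2 CPM with saline, 197 with isotype and 79.0 with anti-CTLA-4, a ratio of 0.40 (0.37 to 0.43). Here the isotype library was the high one. A cluster with Egr1 among its leading genes was part of the class and held 748 isotype and 434 anti-CTLA-4 cells, so the level of Egr1 is not independent of the clustering. Hist1h1c, a linker histone, stood at 128, 164 and 94.0, a ratio of 0.57, and Cep85, a centrosome gene, at 271, 395 and 238, a ratio of 0.60. The amino acid sensor Castor1 was at 0.56 (0.39 to 0.79) and Fam78a at 0.63 (0.49 to 0.81), each with under 300 UMIs. The 1 higher gene that the naming rule kept was Casc4, at 1.5 (1.21 to 1.88), and the 3 others, Lat, Rgs10 and St3gal4, were not kept by it, 3 genes named here after their values were seen. AP-1 and immediate early genes were mostly lower in this lineage, with 20 of 25 below 1 and a median of -0.18 (-0.12 with no doublet removal) beside 0.06 for all genes. Junb was at 0.80 and Jund at 0.89. Nr4a2 went the other way at 1.54 (1.29 to 1.84). A further cluster, led by Egr1 and Nr4a1, was not part of the class and held 2.03% of cells with isotype and 2.26% with anti-CTLA-4.

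In conventional CD4 T cells Cyp51, an enzyme of sterol synthesis, was the 1 private gene the rule named, at 1.55 (1.21 to 2.00), with 20.6 CPM with saline, 12.98 with isotype, 20.2 with anti-CTLA-4, and 14.1 and 17.1 in the depleted pair. Of the T cell activation and checkpoint list 14 of 15 measured members were above 1, with a median of 0.34 beside 0.09 for all genes and 0.13 in the depleted pair. That median was 0.18 with no doublet removal and 0.16 at a minimum of 400 UMIs. The class held a cluster led by Itm2a, Tnfrsf9 and Lad1 with 9 isotype and 31 anti-CTLA-4 cells. Clusters led by Itm2a and Cd5, and by Egr1 and Egr3, held 15 and 19, and 6 and 10. The part of this mix in the ratios of the list was not tested. Tnfrsf4, the costimulatory receptor OX40, stood at 15.5 CPM with saline, 8.83 with isotype, 18.0 with anti-CTLA-4, and 15.1 and 16.0 in the depleted pair, a ratio of 2.04 (1.53 to 2.74). The isotype library was the low one for this gene. Irf4, a factor of activated lymphocytes, was at 1.73 (1.31 to 2.30) with a depleted ratio of 1.03. The activation marker Cd69 was at 1.26 and Nr4a1, an early target of T cell receptor signalling, at 1.33, with depleted ratios of 1.21 and 1.2. Cd28, the receptor that competes with CTLA-4 for its ligands, was at 1.18 (1.10 to 1.254) and Icos at 1.30 (1.12 to 1.5), with 0.97 and 0.99 in the depleted pair. The Cd44-high clusters were a class of their own and are not in these values. Of 3661 genes measured in them 5.44% were past the fold (3.69% higher, 1.75% lower), beside 8.56% of 5689 in germinal centre B-like cells (5.71% higher, 2.85% lower) and 2.55% of 6029 in CD8 clusters high in Ccl5 (2.02% higher, 0.531% lower). Of the germinal centre B-like cells 17 of 77 with isotype were above 30000 UMIs and supplied 44.7% of the class's UMIs. With anti-CTLA-4 10 of 182 were, and they supplied 14.6%. The part of these large cells in the germinal centre ratios was not tested.

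RNA of MHC class II genes, which B cells carry in large amounts, was past the fold upwards for 4 of 8 measured members in CD4 T cells, 3 of 8 in CD8 T-like cells and 0 of 5 in Treg-like cells, beside 1.3%, 1.43% and 5.29% of all genes. Cd74, the invariant chain, stood in CD4 T cells at 53.2 CPM with saline, 44.0 with isotype, 76.0 with anti-CTLA-4, and 11.8 and 11.6 in the depleted pair, a ratio of 1.73 (1.51 to 1.97). In CD8 T-like cells it was at 1.69 (1.49 to 1.92). In follicular B-like cells Cd74 stood at 27534 and 27005 CPM. Summed over 7 B lineage markers, none of them at 0, CD4 T cells had 16.0 CPM with isotype and 21.1 with anti-CTLA-4, and CD8 T-like cells 29.3 and 39.2. The part of free B cell RNA in the MHC class II values was not tested.

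CD8 T-like cells had 1 private higher gene, Mfhas1, an immune signalling scaffold, at 1.52 (1.30 to 1.79), and 1 lower, Tmem154, at 0.66 (0.46 to 0.94). Cell cycle genes were mostly higher there. Of 28 measured, 11 were past the fold upwards and 0 downwards, beside 1.43% and 0.411% of all genes, with a median of 0.39 beside 0.08 for all genes and -0.18 in the depleted pair. The median was 0.21 at a minimum of 400 UMIs, 0.25 by the mean of each cell's UMI share and 0.62 with no doublet removal. Mki67, a marker of proliferating cells, stood at 11.7 CPM with saline, 9.18 with isotype, 25.1 with anti-CTLA-4, and 14.6 and 10.6 in the depleted pair. Its ratio was 2.73 (2.15 to 3.5), and the anti-CTLA-4 library was the highest of the 5. UMIs of Mki67 came from 17 of 1532 cells with isotype and 25 of 1883 with anti-CTLA-4, and 1 isotype cell held 33.7% of the UMIs. Top2a, which untangles replicated DNA, was at 2.10 (1.74 to 2.56) and Cenpf, a kinetochore gene, at 3.29 (2.28 to 4.85). Few cells carried the Mki67 UMIs in either library. Among effector genes Nkg7, of cytotoxic granules, was at 1.00 and the natural killer receptor gene Klrd1 at 1.18, and Ccl4, a chemokine of activated T cells, was the 1 of 10 past the fold, at 2.16 from 40 and 94 UMIs.

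In Treg-like cells a few very large cells had to be set apart. The isotype library held 5 Treg-like cells of 38886 to 83955 UMIs, where the median was 4355.5, and they supplied 12.3% of the UMIs of the class. The anti-CTLA-4 library held 1 such cell of 45854 UMIs, 1.58% of the class. All 6 carried UMIs of the proliferation genes Mki67 and Pclaf, none carried UMIs of Cd79a or Cd8a or a heavy chain contig, and Foxp3 was seen in 3 of the 5 and in the 1. Leaving these cells out was decided once they had been seen, and the private genes of the class then numbered 136 higher and 20 lower, of which 85 and 13 were also in the lists above. Of the 106 lower genes 73 had over 10% of their UMIs from 1 cell. The isotype level lay outside the 4 other libraries for 159 of the 171 higher and 102 of the 106 lower genes, and the anti-CTLA-4 level for 94 and 56. In the depleted pair 148 and 92 of them lay between those limits. The private genes were chosen by the ratio of isotype and anti-CTLA-4, which itself favours a level outside the other libraries. The share over all genes was counted for neither measure.

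Among the private higher genes of Treg-like cells Ptpn22 (chromosome 3, 103856575 to 103912252), a phosphatase that dampens T cell receptor signalling, stood at 221 CPM with saline, 125 with isotype, 212 with anti-CTLA-4, and 193 and 232 in the depleted pair. Its ratio was 1.70 (1.47 to 1.957), or 1.57 without the large cells, and the isotype library was the low one. The noncoding RNA Dleu2, host of a microRNA cluster, was at 2.34 (2.29 without the large cells), Ercc6, a repair gene, at 2.17 (2.07) and Asb3 at 1.85 (1.77). Of the private lower genes Pin4 was at 0.59 (0.63 without the large cells) and Yrdc, a tRNA-modifying enzyme, at 0.60 (0.59), while the ribosome genes Mrpl54 and Rsl1d1 moved from 0.58 to 0.72 and from 0.65 to 0.81.

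Genes of the Treg programme were close to even or higher. Ctla4 itself, whose product is the antibody's target, had 914 CPM with isotype and 937 with anti-CTLA-4, a ratio of 1.02 (0.97 to 1.09), and Foxp3 had 340 and 339. The antibody acts on the protein, so these levels check no label. Ikzf2, the Helios factor, stood at 954 CPM with saline, 710 with isotype, 981 with anti-CTLA-4, and 905 and 1032 in the depleted pair, a ratio of 1.38 (1.30 to 1.47). Ikzf2 led, with Tox among its top genes, a Treg-like cluster of 9 isotype and 27 anti-CTLA-4 cells whose median was 0.58 of their libraries' UMIs, and the part of that mixture in their ratios was not tested. Of 16 measured members of the programme 13 were above 1, with a median of 0.26, or 0.16 without the large cells, beside 0.11 for all genes. Of the T cell activation and checkpoint list 3 of 23 measured members were past the fold upwards and 0 downwards, beside 5.29% and 2.34% of all genes. Pdcd1, which encodes PD-1, stood at 98.7, 44.8, 71.1, 56.2 and 55.5 CPM in the order used above for Socs3, a ratio of 1.59 (1.248 to 2.03), and the saline library was above both. Btla was at 1.71 (1.36 to 2.15), Icos at 1.43 (1.27 to 1.62) and Tox, a factor of chronic stimulation, at 1.31 (1.22 to 1.41). Without the large cells Pdcd1 was at 1.51 and Btla at 1.60. Cxcl10, a chemokine that interferon gamma induces, stood at 112 CPM with saline, 32.0 with isotype and 101 with anti-CTLA-4, a ratio of 3.14 (2.43 to 4.11).

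The Myc and ribosome biogenesis list, genes of growing cells, was the lowest list of Treg-like cells, and its median moved when the large cells were left out. Of 19 measured members 8 were past the fold downwards and 0 upwards, beside 2.34% and 5.29% of all genes, with a median of -0.47 beside 0.11. By the mean of each cell's UMI share the median was -0.22, and without the large cells it was -0.06. Srm, an enzyme of polyamine synthesis, went from 0.45 to 0.85 by leaving them out, C1qbp from 0.55 to 0.83, Npm1 from 0.74 to 1.03 and Ran, of nuclear transport, from 0.65 to 1.12. In follicular B-like, CD4 T and CD8 T-like cells the medians of the list were -0.04, 0.16 and 0.09. Cell cycle genes of Treg-like cells depended on the same cells, since Pclaf moved from 0.41 to 7.89 and Rrm2, of nucleotide synthesis, from 0.53 to 3.58. Mki67 UMIs were held by 11 of 406 cells with isotype and 30 of 574 with anti-CTLA-4, and its ratio was 2.54 with the large cells and 7.30 without them. The large cells, 5 isotype and 1 anti-CTLA-4, all carried Mki67 and Pclaf, so these rises follow from which cells were left out. The class pooled a cluster led by Mki67, with 2 isotype and 14 anti-CTLA-4 cells, and one led by Pclaf, with 6 and 1. The part of this mix in the ratios was not tested.

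**Figure D4:**
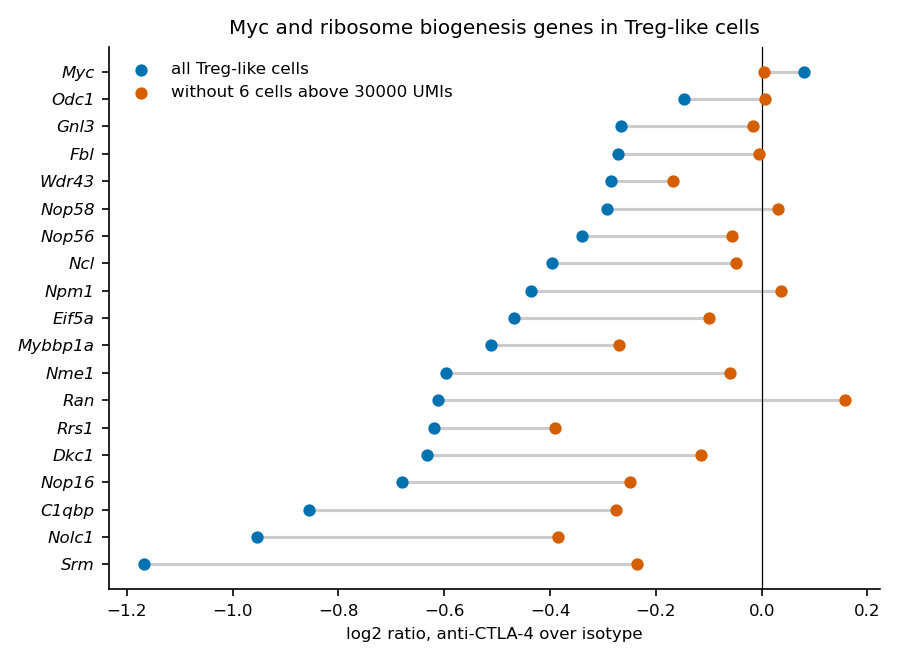
Log2 ratio of anti-CTLA-4 over isotype in Treg-like cells for 19 genes of the Myc and ribosome biogenesis list, with all cells (blue) and without the 6 cells above 30000 UMIs (orange). The blue points reach down to Srm at a ratio of 0.45, and the orange points lie nearer to 0.

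The type I interferon response list had medians of 0.11, 0.18, 0.20 and -0.01 in follicular B-like, CD4 T cells, Treg-like cells and CD8 T-like cells, beside 0.06 to 0.11 for all genes, and 1 of 23, 0 of 22, 1 of 19 and 0 of 25 measured members past the fold upwards, beside 0.966%, 1.3%, 5.29% and 1.43% of all genes. Its median was 0.082 in CD4 T cells with no doublet removal and 0.072 in Treg-like cells without the large ones. Slfn2, which holds lymphocytes quiescent, was at 1.24, 1.22, 1.26 and 1.12 in these lineages, and Ifi27l2a at 0.92, 0.95, 1.09 and 0.86. Among interferon gamma response genes the immunoproteasome subunit Psmb8 was at 0.99, 1.00, 0.98 and 0.98, and Irf1 at 1.12 in CD4 T, 1.13 in Treg-like and 1.21 in CD8 T-like cells.

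NK-like cells, 53 in each library, carried their defining genes at an even summed level, although Klra8, 1 of these genes, was lower, as given below. Their 11 NK markers summed to 14487 CPM with isotype and 14492 with anti-CTLA-4, Ncr1, the NKp46 receptor, was in 50 and 49 cells, and Cd3e was at 0 UMIs in both. Of 1006 genes with at least 100 UMIs 8.35% were past the fold (4.47% higher, 3.88% lower). Ccl5 (chromosome 11, 83525778 to 83530518), a chemokine stored by cytotoxic cells, stood at 10744 CPM with saline, 12533 with isotype, 8031 with anti-CTLA-4, and 9944 and 7003 in the depleted pair. The anti-CTLA-4 library was the lower of each pair, with ratios of 0.64 (0.61 to 0.67) and 0.70 (0.67 to 0.74). Ccl4 was at 0.69 (0.59 to 0.81) and 0.80, and Ccl3 at 1.51 (1.22 to 1.86), with 34.9% of its isotype UMIs in 1 cell.

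The cytotoxic machinery of NK-like cells was nearly even. Gzma, a granzyme, was at 1.07 (0.99 to 1.15), Nkg7 at 1.11 (1.01 to 1.22), Prf1, perforin, at 1.18 (0.91 to 1.54) and Gzmb at 1.2 (0.95 to 1.52), and Ifng at 0.81 (0.60 to 1.08). Of the Ly49 receptors Klra4 was at 0.98 (0.83 to 1.16) while Klra8, which encodes Ly49H, stood at 898 CPM with saline, 992 with isotype, 567 with anti-CTLA-4, and 711 and 734 in the depleted pair, a ratio of 0.57 (0.47 to 0.69). Klrc2 was at 0.53 (0.37 to 0.76). Prf1, Gzmb, Ifng and these 2 receptors were chosen after their values were seen.

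Immediate early genes were lower in NK-like cells. Junb stood at 3148 CPM with saline, 5160 with isotype, 3404 with anti-CTLA-4, and 3125 and 2929 in the depleted pair, a ratio of 0.66 (0.61 to 0.71), and the isotype library was the high one. Jun was at 0.62, Fos at 0.54 and Nr4a1 at 0.79, and of 20 members 16 were below 1, with a median of -0.27, or -0.16 at a minimum of 400 UMIs, beside 0.01 for all genes. Cd69, in the same list, was at 2.53 (1.64 to 4.01) from 30 and 74 UMIs. Klf2, which keeps lymphocytes in circulation, was at 0.55 (0.46 to 0.65) with a depleted ratio of 0.78. Chaperones of protein folding led the higher genes, with Cct4 of the chaperonin at 2.03 (1.41 to 2.96), Ptges3, an HSP90 partner, at 1.92 and Hsp90ab1 at 1.48 (1.34 to 1.64). Bzw1 and Eef1g of translation were at 1.85 and 1.62 and the actin bundler Lcp1 at 1.48, while Hspa1b was at 0.42 (0.34 to 0.52). Camk1d and Zc3h7a, both lower in the 4 large lineages, were lower here too, at 0.49 and 0.52.

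The gamma-delta gate held 40 and 42 cells, and 10.4% of 595 genes were past the fold (6.22% higher, 4.2% lower). Its B lineage markers summed to 195 CPM with isotype and 8.53 with anti-CTLA-4, with 2 and 5 of 7 at 0, and 2 isotype cells carried a heavy chain contig. Their part in the ratios was not tested. Trdc was in 31 and 32 cells, with 394 and 379 CPM, a ratio of 0.96 (0.71 to 1.30). Ptprc, the pan-leukocyte phosphatase CD45, led the higher genes at 1.63 (1.33 to 2.00), followed by Lcp1 at 1.58, Gimap6, a survival GTPase, at 1.46, and Ifngr1, the interferon gamma receptor, at 1.44. Pitpnc1 and the small GTPase Cdc42 were at 1.58 and 1.5. Their depleted ratios were 0.87, 0.99, 1.05, 0.93, 0.82 and 0.94. Among the lower genes named by the rule were Gstp1 at 0.62, Emp3 at 0.64, Hspa8 at 0.76, Fau at 0.83 and Tmsb10 at 0.85.

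Genes of interleukin 17-producing gamma-delta cells were carried by few of these cells. Cd163l1 (chromosome 7, 140197218 to 140231145), the scavenger receptor SCART1, stood at 869 CPM with saline, 216 with isotype, 422 with anti-CTLA-4, and 241 and 408 in the depleted pair. It was seen in 5 and 9 cells, with ratios of 1.95 (1.38 to 2.80) and 1.69 in the 2 pairs, and the saline library was the highest. Trdv4, a delta V segment, was at 1.80 (1.19 to 2.75) and 2.37 from 7 cells in each library, with 50% of its isotype UMIs in 1 cell. Rora, a partner of the type 17 master factor, was at 0.47 (0.31 to 0.69) here.

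A separate type 17 class, which overlaps the gate, held 25 and 22 cells, and 15.7% of 369 genes were past the fold (9.49% higher, 6.23% lower). It pooled 5 clusters whose mix differed, and Zbtb16, a factor of innate-like T cells, was among the leading genes of 3 of them, 1 of which had Trdc at 0. The 2 clusters led by Cd163l1 held 9 isotype and 4 anti-CTLA-4 cells, and 3 and 6, the latter with the most Trdc, and the part of this mix in the ratios was not tested. All 9 measured members of the gamma-delta and type 17 list were above 1 there, with a median of 0.61 beside 0.03 for all genes and 0.21 in the depleted pair. Cd163l1 was at 2.71 (1.91 to 3.87), Trdv4 at 2.55 (1.74 to 3.80) and the residence receptor Cxcr6 at 1.94 (1.47 to 2.57). Rora was at 1.52 (1.15 to 2.03), against 0.47 in the gate, so the direction of this gene depends on how the cells are chosen. Icos, too, was at 1.46 (1.14 to 1.87) in the class and 0.33 (0.18 to 0.58) in the gate. Il17a had 54 and 3 UMIs in 2 cells of each library, 92.6% of the former in 1 cell, and was chosen after its values were seen. By the naming rule Itm2b at 1.49, Il7r, the interleukin 7 receptor, at 1.33, Cd3e at 1.32, H2-K1 at 1.24 and Ly6e at 1.22 led the higher genes, and Tmsb10 at 0.75 and Fau at 0.76 the lower ones.

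Migratory DC-like cells, 29 and 49, expressed their defining genes in both libraries. Their 10 markers summed to 14292 CPM with isotype and 17627 with anti-CTLA-4, and none was at 0. B lineage markers summed to 553 and 68.8 CPM, and 4 isotype cells and 1 anti-CTLA-4 cell carried a heavy chain contig. These values move with the MHC class II ratios below. Their part in those ratios, and in the maturation and NF-kB ratios, was not tested. Of 1009 genes 9.81% were past the fold (6.44% higher, 3.37% lower). Ccr7 (chromosome 11, 99144199 to 99155077), the receptor that guides DCs into the node, stood at 2821 CPM with saline, 1759 with isotype, 2992 with anti-CTLA-4, and 2559 and 1896 in the depleted pair. Its ratio was 1.70 (1.53 to 1.89) with B cells and 0.74 after depletion, and the isotype library was the lowest. The actin bundler Fscn1 was at 1.15 (1.07 to 1.23), the chemokine gene Ccl5 at 1.38 (1.32 to 1.43) with 1.22 after depletion, Tmem123 at 1.49 (1.35 to 1.64), and Cd274, the ligand of PD-1, at 1.61 (1.21 to 2.16) with 0.73 after depletion. Of 22 measured maturation genes 17 were above 1, with a median of 0.23, or 0.14 with no doublet removal, beside 0.07 for all genes. The list shares Ccr7, Fscn1, Tmem123 and others with the 10 markers, so it is not separate from their higher sum.

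Feedback genes of NF-kB, the main pathway of DC maturation, were mostly above 1 in these cells. Of 8 measured 7 were above 1 and 3 past the fold upwards, beside 6.44% of all genes, with a median of 0.53 beside 0.07 for all genes and 0.09 in the depleted pair. The median was 0.31 with no doublet removal and 0.30 by the mean of each cell's UMI share. Nfkbia, the inhibitor IkB alpha, stood at 2122 CPM with saline, 1386 with isotype, 2273 with anti-CTLA-4, and 1666 and 1777 in the depleted pair, a ratio of 1.64 (1.45 to 1.85). Birc3 was at 1.66 (1.30 to 2.12) and Tnfaip3, the deubiquitinase A20, at 1.66 (1.28 to 2.19), while the subunit Relb was at 1.24. Again the isotype library was the lowest for Nfkbia, with saline near anti-CTLA-4. By the naming rule Tmem176b, at 1.69 (1.5 to 1.9), led the higher genes with Birc3, followed by Srsf3 and Npm1 at 1.59 and 1.45, and Apobec3 and Anxa3 at 1.35 and 1.27. The lower ones were Atp5e at 0.66, Fau at 0.82 and B2m at 0.89, while the intervals of Myl12b at 0.82, Ppia at 0.92 and Eef1a1 at 0.94 hold 1.

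The ligands of CTLA-4 did not follow the maturation genes. Cd80 was in 12 of 29 and 13 of 49 migratory DC-like cells, at 99.0 and 87.8 CPM, a ratio of 0.89 (0.53 to 1.51), and Cd86 in 14 and 25 cells, at 264 and 204 CPM, a ratio of 0.77 (0.56 to 1.07). Both intervals hold 1. MHC class II genes were lower, with Cd74 at 0.87 (0.83 to 0.91), H2-Aa at 0.75 (0.70 to 0.81) and H2-Eb1 at 0.78 (0.72 to 0.85), but 1 isotype cell held 26.0% of the H2-Aa UMIs and without the top cells its ratio was 0.86. Isg15, an interferon-induced modifier picked for its value, stood at 5.77 (3.09 to 11.9) from 11 and 98 UMIs.

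Plasmacytoid DC-like cells, 28 and 32, held several identity genes at even levels, while Ly6d and Cox6a2 were lower and Ly6a higher. Values of Cox6a2 and Ly6a are given further below. Siglech was in 28 of 28 and 32 of 32 cells at 2732 and 2773 CPM, Bst2, the tetherin marker, was at 1.01 (0.94 to 1.09), Irf8 at 1.00 (0.91 to 1.09), Ly6c2 at 1.02 and Ly6d at 0.82 (0.76 to 0.89). None of 15 measured list members was past the fold, beside 8.27% of 991 genes (5.55% higher, 2.72% lower). Immediate early genes were higher, the reverse of NK-like cells, with 10 of 11 above 1 and a median of 0.56 (0.37 at a minimum of 400 UMIs) beside 0.00 for all genes and 0.53 in the depleted pair. Jun stood at 961 CPM with saline, 550 with isotype, 1012 with anti-CTLA-4, and 501 and 821 in the depleted pair, so that both isotype libraries were low. Its ratio was 1.84 (1.53 to 2.21) with B cells and 1.64 after depletion. Jund was at 1.47 and 1.57, and Nr4a1 at 1.98 (1.38 to 2.87) and 2.98. The difference in direction between NK-like and plasmacytoid DC-like cells was not tested.

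The genes leading this class by the rule had like ratios in the depleted pair in several cases. Grm8, a glutamate receptor, was at 1.53 (1.2 to 1.958) and 1.9, Cd44, an adhesion receptor, at 1.43 and 1.43, Malat1, a nuclear noncoding RNA, at 1.33 and 1.35, and Cybb, of the phagocyte oxidase, at 1.40 and 1.24. Grina was at 1.59 and 1.10, and Ly6a at 1.28 and 0.91. Of the lower genes Cox6a2 was at 0.71 and 0.57, Cox6c at 0.61 and 0.63, Atp5e at 0.67 and 0.74, Sec61b at 0.74 and 0.71, and Fau at 0.80 and 0.74, while Cox5b was at 0.60 and 1.11. These lower genes encode respiratory chain subunits, an ATP synthase subunit, the translocon and a ribosomal protein. Ribosomal protein genes made up 19.3% of the class's UMIs with isotype and 16.9% with anti-CTLA-4, and 20.1% and 15.4% in the depleted libraries.

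**Figure D5:**
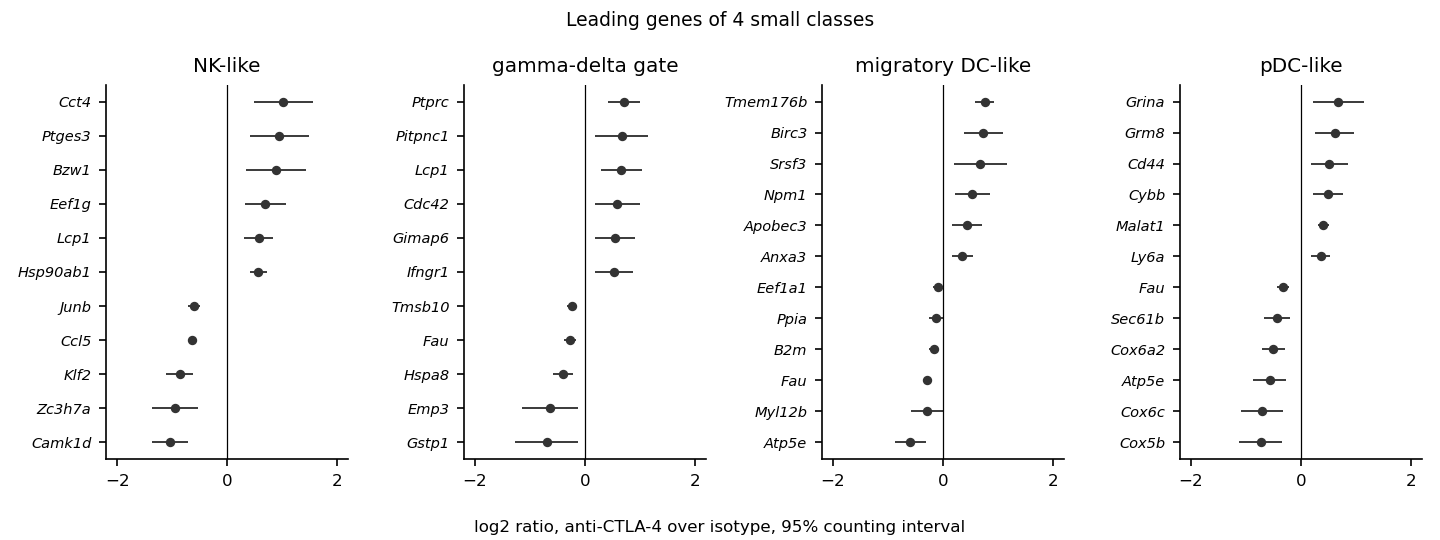
Log2 ratio of anti-CTLA-4 over isotype with 95% counting intervals for genes named by the rule, 11 in each of NK-like cells and the gamma-delta gate and 12 in each of migratory DC-like and plasmacytoid DC-like cells. Higher genes lie right of 0 and lower genes left of it, and the ratios reach 2.03 for Cct4 and 0.49 for Camk1d in NK-like cells.

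The other myeloid clusters were the least certain. They pooled a cluster led by Ifitm3 and Il1b (18 and 14 cells), one led by Cst3 and Plbd1 (9 and 6) and one led by Lyz2 (4 and 4), and could not be named as monocytes or classical DCs. The mixture and depth differed, with medians of 12952 UMIs with isotype and 7884 with anti-CTLA-4, and 20.5% of 889 genes were past the fold (12.8% higher, 7.65% lower). Lyz2, lysozyme of monocytes and macrophages, stood at 1412 CPM with saline, 733 with isotype, 3169 with anti-CTLA-4, and 1186 and 1053 in the depleted pair. It was seen in 15 of 31 and 7 of 24 cells, and 57.8% of its isotype UMIs were in 1 cell. Il1b was at 1.03 (0.84 to 1.248), the effector gene S100a4 at 1.19 (1.04 to 1.36) and Plac8 at 0.95 (0.81 to 1.11), and Apoe, at 13.3, had 63.8% of its anti-CTLA-4 UMIs in 1 cell. Cd86 stood at 276 and 690 CPM, a ratio of 2.5 (1.95 to 3.22) seen in 21 of 31 and 22 of 24 cells, and Cd80 at 2.38 (1.5 to 3.80), with depleted ratios of 0.74 and 0.77. B lineage markers of the class summed to 370 CPM with isotype and 153 with anti-CTLA-4, and T cell markers to 164 and 14.4. A heavy chain contig was carried by 4 isotype cells and 1 anti-CTLA-4 cell. The part of such cells or RNA in the ratios of this class was not tested. By the rule Pabpc1 at 1.27, Ctss, a protease of antigen processing, at 1.254, and H3f3a at 1.16 led the higher genes, and Capzb at 0.75 and Arpc3 at 0.80, both of the actin network, the lower ones.

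Across classes the receptors and ligands of the CTLA-4 axis differed widely in level, with Ctla4 highest in Treg-like cells (914 and 937 CPM), then in the Cd44-high CD4 clusters (471 and 508), and at 31.6 and 34.3 in CD8 T-like and 21.4 and 27.2 in conventional CD4 T cells. Its ratio was 1.08 (0.95 to 1.22) in the Cd44-high clusters and 1.27 (1.04 to 1.56) in conventional CD4 T cells. NK-like cells had 2 and 0 UMIs of it, migratory DC-like 0 and 2 and plasmacytoid DC-like cells 0 and 0. Icos was above 1 in the 3 large T lineages, at 1.30, 1.43 and 1.248 in CD4 T cells, Treg-like cells and CD8 T-like cells, with 0.99, 1.10 and 1.05 in the depleted pair, and Cd28 at 1.18, 1.15 and 1.11, with 0.97, 1.01 and 0.96. In follicular B-like cells Cd86 was at 1.11 (1.05 to 1.17), with 168 and 187 CPM, and Cd80 had only 10 and 9 UMIs.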

How the data were processed

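Gene expression was measured by droplet sequencing from the 5′ end, with B cell receptor libraries beside it. The deposited matrices hold whole-number UMI counts per gene and barcode, which the authors made with Cell Ranger (version 7.0.1 per the file headers). The submitters' processing notes name bcl2fastq 2.20.0 and mm10. Neither the annotation release nor how cells were called is given in the sources used here. Barcodes with at least 500 genes and at most 10% mitochondrial UMIs were kept, and the highest Scrublet scores were removed at 0.8% per 1000 barcodes, because the automatic threshold marked 0 barcodes in each depleted library. Cells were clustered with Scanpy 1.11.5 and leidenalg 0.10.2 at resolution 1 (Python 3.11.15, numpy 2.4.6, scipy 1.17.1, pandas 2.3.3, matplotlib 3.10.9). Clusters were named from marker lists, and the levels that divide classes were set after the clusters were seen. The gamma-delta gate needed at least 2 UMIs summed over Trdc and the gamma constant genes, a Cd3 gene and none of Trac. UMIs were summed per class and library and scaled to 1000000. Ratios have exact conditional binomial 95% intervals, and shares have Clopper-Pearson intervals. The members and the 29 gene lists were chosen with earlier results of these data known. Named genes were the 12 highest and 12 lowest shared genes by median log2 ratio (only 10 higher ones were eligible), 4 and 4 private genes per lineage and 6 and 6 genes per small class by the interval bound nearest 1, leaving out genes with over 10% of UMIs in 1 cell, and the 4 members of each list with the most UMIs, with Ctla4, Cd28, Icos, Cd80 and Cd86 everywhere. A gene that the rule selects in 2 small classes is not reported here. Alternatives were median-ratio size factors, no doublet removal, a marker gate per barcode, other UMI minimums and folds, and leaving out the top cell of a gene. The ratio calls were tested on simulated data.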

Additional observations from a re-analysis of the deposited data

Results flagged for a closer look

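In 2 genes the ratio of anti-CTLA-4 over isotype was at 0.8 or below in all 3 T cell lineages with B cells present and at the inverse of 0.8 or above in all 3 after B cell depletion. Hspa1b, an inducible HSP70 gene, had ratios of 0.727 in conventional CD4 T, 0.586 in Treg-like and 0.711 in CD8 T-like cells with B cells, and of 1.5, 1.27 and 1.45 after depletion. Slc15a2, a peptide transporter gene, had ratios of 0.764, 0.628 and 0.678 with B cells, and of 1.45, 1.40 and 1.254 after depletion. The difference between the pairs was not tested, since each treatment had 1 library.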

How the results depend on the processing

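No paired analysis was possible because each group had 1 library, and no library could be left out. Counts past the fold, at UMI minimums of 50 and 400 and a fold of 2, were 326, 58 and 32 in follicular B-like, 304, 26 and 20 in conventional CD4 T, 905, 103 and 56 in Treg-like and 371, 40 and 32 in CD8 T-like cells. Shared higher genes numbered 13 at a shared fold of 1.5, and 37 and 15 at minimums of 50 and 400. Shared lower genes numbered 57 with median-ratio size factors, 22 with a marker gate per barcode and 4 at a fold of 1.5. For private genes each UMI minimum was asked in all of the large lineages. Private genes at a fold of 2 and minimums of 50 and 400 numbered 2, 25 and 0 in follicular B-like, 0, 20 and 1 in CD4 T, 11, 437 and 38 in Treg-like and 0, 9 and 0 in CD8 T-like cells. With no doublet removal they numbered 2 in CD4 T, 166 in Treg-like and 6 in CD8 T-like cells, and with the gate 0 in CD8 T-like cells. Settings added after seeing the data gave 7 in CD4 T and 156 in Treg-like cells without cells above 30000 UMIs, and 9 in CD4 T and 10 in CD8 T-like cells by the mean of each cell's UMI share. The share ratio was 0.973 for follicular B-like and 1.23 for other myeloid clusters with no doublet removal, and 1.01 for CD4 T and 1.67 for plasmacytoid DC-like cells with the gate. The cell cycle median in CD8 T-like cells was 0.62 with no doublet removal, 0.21 at a minimum of 400 and 0.25 by the mean share. The Myc median in Treg-like cells was -0.24, -0.058 and -0.22 with no doublet removal, without the large cells and by the mean share. Relative to all genes the direction turned for heat shock genes in plasmacytoid DC-like cells (-0.026) and MHC class II in CD8 T-like cells (0.069) at a minimum of 400, for interferon gamma genes in Treg-like cells (0.10) without the large cells, and for type 17 genes in the gamma-delta gate (-0.014) and monocyte genes in other myeloid clusters (-0.16) with no doublet removal. In Treg-like cells without the large cells Rps27l was at 1.01, Mcm3 at 1.17, Rrm2 at 3.58, Pclaf at 7.89, Tk1 at 2.15 (1.17 by the mean share), Dut at 1.51 and Ran at 1.12. Nr4a3 in migratory DC-like cells was at 1.42 without its top cell. The cause was not tested. Small classes of 22 to 53 cells limit their genes to abundant ones.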
